A study of Cricetulus griseus with 3 samples.

Results

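Solute carriers are the membrane proteins that move sugars, amino acids, ions, metals, nucleotides and organic acids across the plasma membrane and the membranes of organelles. Of the 8146 genes that carry a single name on the array, 143 belong to this superfamily and were measured by 183 spots. They were taken by name alone, as every gene whose symbol opens with Slc or Slco and a number. The glucose transporter genes Slc2a1 and Slc2a3 were left out. No ratio enters this choice by name, which was made with earlier results of these arrays known, and both genes left out passed the test (their values are given with the sugar carriers). One of the 143, Slc9a3r1, is a scaffold protein of sodium/proton exchangers and no carrier itself.

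The RNA came from Chinese hamster ovary (CHO) cells, an established line. S-1 cells carry stable constructs for the γ-secretase subunits NCT (tagged with GST), PS1, APH1-a2 (tagged with HA) and PEN2 (tagged with Flag), are labelled as having 8-fold enhanced activity, are marked by the study as also overexpressing APP, and received 0.05% DMSO for 24 h. The untransfected CHO cells, from which S-1 descends through an intermediate line, received the γ-secretase inhibitor DAPT at 10 µM in 0.05% DMSO for the same 24 h. Both were grown with 10% serum, and the S-1 medium also held G418 (200 µg/ml), puromycin (25 µg/ml), zeocin (250 µg/ml), hygromycin (250 µg/ml) and blasticidin (10 µg/ml). Each of the 3 arrays, which hold PCR products of mouse cDNA clones, compared both sides, with 1 culture for each, in an independent experiment, with S-1 in Cy3 on arrays 1 and 2 and in Cy5 on array 3. Cell line, constructs, APP overexpression, selection drugs and inhibitor differ together between both sides, and their parts in a ratio cannot be told apart.

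Carriers of the plasma membrane include facilitators, which let a solute run down its own gradient, carriers coupled to sodium, protons or chloride, and exchangers. Most carriers of the Slc25 family sit in the inner mitochondrial membrane, and members of Slc35 bring nucleotide sugars into the Golgi apparatus and the endoplasmic reticulum. Carriers are grouped below by family number (apart from Slc9a3r1), so a single member can differ from the role of its group. Zinc runs through Slc39 proteins into the cytosol and through Slc30 proteins out of it. Cultured cells depend on these proteins for glucose, amino acids, choline, phosphate and trace metals.

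The values are log2 ratios, 1 per array, with S-1 as the numerator and DAPT-treated CHO as the denominator, so that a positive value means more signal from S-1 cells and a value of 1 means a 2-fold linear ratio. A gene value is the mean over the spots of that gene, and errors are SDs over the 3 arrays (n = 3 throughout). A ratio gives no level of either side, so the markers of the cell line could be checked only as ratios. Of 4 fibroblast and mesenchymal markers measured, Vim and Col3a1 were lower in S-1 cells, at −1.04 and −1.31, while Col1a2 and Col1a1 did not pass, at 0.25 and 0.06. Of 4 epithelial markers Cldn4 was higher, at 0.86, and Krt18, Cdh1 and Epcam did not pass, at 0.17, 0.05 and −0.10. Of 3 neuron and glia markers Tubb3 was lower, at −0.53, and Snap25 was higher, at 2.63 on a spot for which the study lists no clone, and Lyz2, the 1 blood marker measured, did not pass at −0.16. On the array as a whole, r between arrays lay from 0.878 to 0.962 across the tested spots, and across the carrier spots from 0.914 to 0.973, where spots are not independent replicates. RNA of whole cultures does not tell fewer cells of a kind from less RNA per cell.

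Transcript ratios of solute carriers went both ways. In S-1 cells 16 of the 143 genes were higher, 10 were lower and 117 did not pass the test (limma, adjusted p under 0.005 over all genes). That made 18.2% of the carriers, against 22.6% of all genes tested. For higher genes the share was 11.2% against 12.4%, and for lower genes 6.99% against 10.3%. The median ratio of the carriers was −0.03 on the log2 scale, and that of all genes 0.01. All 26 genes that passed had the same sign on the 3 arrays, which the test of the mean over these arrays favours. Of these 26, 19 lay within 1 log2 unit of 0. The highest were Slc27a2, Slc16a7, Slc25a4 and Slc37a4, and the lowest were Slc38a10, Slc25a36 and Slc44a1. Without array 2, 7 of the carrier genes passed, without array 1, 11 did, and 57 passed without array 3. Leaving out an array bears on every gene, and the share of all genes in these fits was not taken.

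The kind of clone behind a value moved with its direction. Spots fall into collections (H, P and N), named by the first letter of the clone identifiers and set here by block position. The study's lists hold only clones past its threshold, so many H, P and N spots have no listed clone either. A further 480 spots lie at block positions to which no letter of these lists was given, and are called unlisted here. Of these 480, 79.6% (382 spots) passed the same threshold here, although the lists give no clone at their positions. On the higher side 78.8% passed and on the lower 0.833%, around a median of 1.56. Of the H spots 15.3% passed, with 6.76% higher and 8.52% lower, around a median of 0.00. P spots passed in 32.1% (19.3% higher, 12.8% lower) and N spots in 32.8% (28.1% higher, 4.69% lower). The carriers had 168 H, 5 P, 1 N and 9 unlisted spots. Of the 9 unlisted carrier spots 8 were higher, against 9 higher and 17 lower among the 168 H spots. Hence 8 of the 16 carrier genes that were higher contain an unlisted spot in their value, and 0 of the 10 lower genes do. With H clones alone, 6 of 135 carrier genes were higher and 12 lower, that is 4.44% against 8% of all genes measured by H clones, and 8.89% against 10.7% (both directions, 13.3% against 18.7%). With only the unlisted spots left out, 7 of 139 carrier genes were higher and 12 lower, so that 13.7% passed. Among all genes treated in this way 19.9% passed, 9.26% higher and 10.6% lower. What the unlisted spots hold was not tested.

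**Figure D1:**
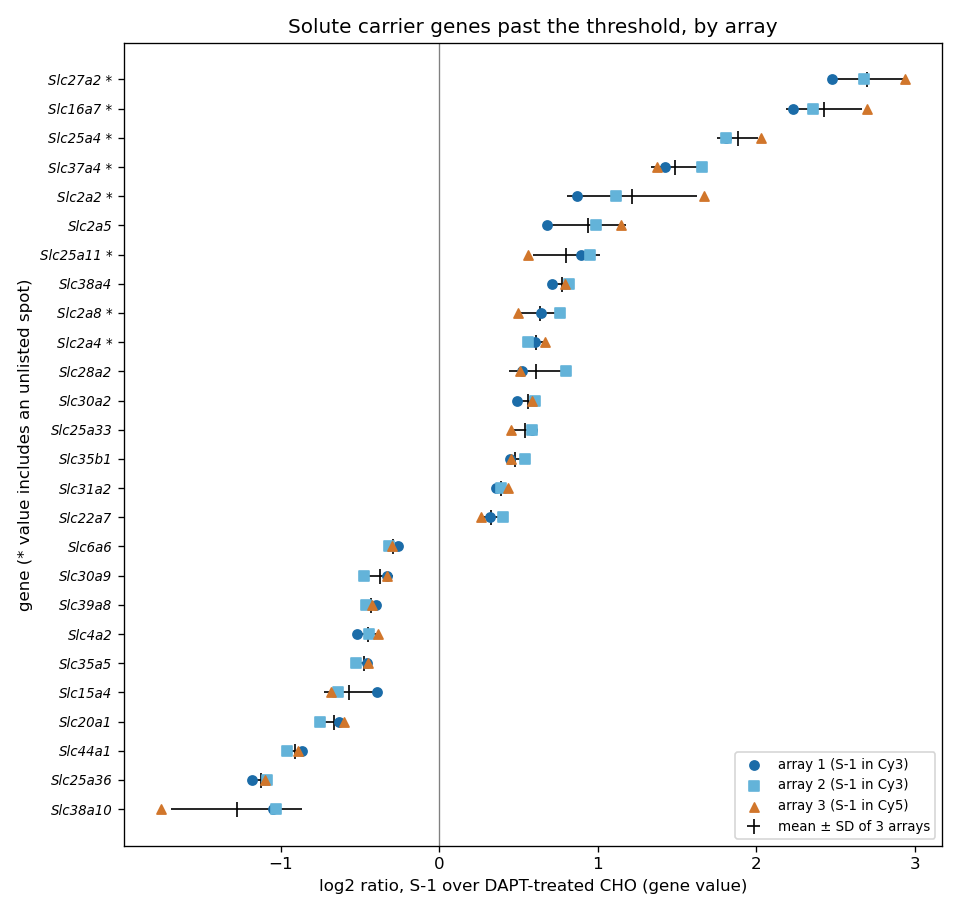
Log2 ratio (horizontal axis, S-1 over DAPT-treated CHO) for the 26 carrier genes past the threshold (vertical axis), with 1 point per array and the mean ± SD of 3 arrays. Every gene keeps its side of 0 on the 3 arrays, which the test on these arrays favours. Of the 16 genes on the right, 8 include an unlisted spot (asterisk), among them the 4 highest.

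Among the carriers of sugars and sugar phosphates, 5 of 14 genes were higher in S-1 cells (35.7%, against 12.4% of all genes), 0 were lower and 9 did not pass. None of the 5 rested on H clones alone, and with H clones alone 0 of 10 were higher and 1 was lower. Slc2a5, the fructose transporter GLUT5, was measured by a P clone and read 0.68, 0.99 and 1.15 on arrays 1, 2 and 3. Its mean of 0.94 ± 0.24 stands for a linear ratio of 1.92 (adjusted p = 0.0016). Slc37a4, which carries glucose 6-phosphate into the endoplasmic reticulum, was at 1.43, 1.66 and 1.38 on an unlisted spot, a ratio of 2.8 (adjusted p = 1.73e-04). With each collection centred on its median, Slc37a4 was at −0.07 and did not pass (adjusted p = 0.461).

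The 3 further sugar carriers that rose each joined an unlisted spot with other clones that did not follow it. Slc2a4, the insulin-responsive glucose transporter GLUT4, ran from 1.85 to 2.18 over the arrays on its unlisted spot and was at −0.64, −0.87 and −0.85 on its H clone. Both spots passed, in opposite directions (adjusted p = 1.25e-04 and 8.47e-04), so the gene value of 0.61 describes neither. Slc2a2, the liver and β-cell transporter GLUT2, was at 2.37, 2.60 and 2.94 on its unlisted spot, while its N clone ran from −0.64 to 0.39 over the arrays and did not pass (adjusted p = 0.463). Slc2a8, the intracellular transporter GLUT8, was at 1.67 ± 0.14 on the unlisted spot and at 0.11 and 0.12 on both H clones. Without the unlisted spots, Slc2a4 was lower in S-1 cells (−0.79, adjusted p = 9.83e-04), and Slc2a2 (−0.20, adjusted p = 0.448) and Slc2a8 (0.11, adjusted p = 0.346) no longer passed.

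The glucose carriers that the choice by name leaves out showed both signs. Slc2a1, which encodes GLUT1, fell on its H clones, at −2.17 and −2.13, and on its unlisted spot, at −1.05. Slc2a3, which encodes GLUT3, was at 2.21 on a single unlisted spot. Of the other sugar carriers, Slc5a11, a sodium-coupled inositol transporter, had the highest value that did not pass, 0.42 ± 0.13 (adjusted p = 0.00512). Slc37a2 stood at −0.34, Slc50a1 at −0.26 and Slc37a3 at −0.24, and none of these passed.

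Amino acid carriers held the lowest value of all the carriers. Slc38a10 read −1.05, −1.03 and −1.76 on arrays 1, 2 and 3, which made the transcript 2.43-fold lower in S-1 cells (−1.28 ± 0.41, adjusted p = 0.00276). All 3 arrays were low, and array 3, the dye swap, was the lowest. Slc38a4, a sodium-coupled system A transporter of neutral and cationic amino acids, went the other way. Its gene value was 0.77 ± 0.05 (adjusted p = 3.19e-04), made of an H clone at 1.24, 1.38 and 1.40 and a second H clone at 0.18, 0.25 and 0.18. The first clone was a ratio of 2.53 and passed (adjusted p = 1.35e-04), and the second did not (adjusted p = 0.0211).

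The other 14 genes grouped by family as amino acid carriers did not pass. In this group 12.5% passed, against 22.6% of all genes. Slc7a5 and Slc3a2, which encode both chains of the large neutral amino acid transporter, were at 0.00 ± 0.02 and 0.01 ± 0.04. Slc1a5, the glutamine transporter ASCT2, was at 0.22 ± 0.14 (adjusted p = 0.0471). Slc38a2, the main system A transporter of many cultured cells, read −0.47, −0.42 and −0.11, and Slc38a7, a lysosomal glutamine transporter, −0.41, −0.19 and −0.46 (adjusted p = 0.0247 and 0.0105). Slc43a3, placed in this group by its family number alone, had the highest of the values that missed the threshold here, 0.28.

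In the Slc6 family, whose members are driven by sodium and chloride, the taurine transporter gene Slc6a6 was lower, at −0.29 ± 0.03 (adjusted p = 0.00452). Of its 3 H clones, 1 passed, at −0.50, and the others were at −0.28 and −0.10. With the median of the spots in place of the mean, the call ended (adjusted p = 0.0128). The creatine transporter gene Slc6a8 had an H clone at 0.57, 0.49 and 0.74, which passed (adjusted p = 0.00191), and another at 0.03, and its gene value of 0.31 did not pass. The glycine transporter gene Slc6a9 was at −0.03. Of the proton-coupled peptide carriers, Slc15a4, which moves histidine and peptides out of endosomes and lysosomes, fell, with −0.39, −0.64 and −0.68 on the 3 arrays (adjusted p = 0.00278). Slc15a2, the high-affinity peptide transporter of the plasma membrane, stood at 0.15 and did not pass.

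The 20 Slc25 genes are grouped here as mitochondrial carriers. Of these, 3 were higher in S-1 cells, 1 was lower and 16 did not pass (20% passed, against 22.6% of all genes). With H clones alone, 1 of 18 was higher and 1 lower. Slc25a36, a carrier of pyrimidine nucleotides, had the largest difference of any H clone in the superfamily. That clone was at −2.46, −2.32 and −2.09, 4.89-fold lower in S-1 cells (adjusted p = 1.23e-04). A second H clone of the same gene was at 0.09, 0.14 and −0.12 and did not pass (adjusted p = 0.668), and the gene value lay between them at −1.13. Slc25a33, the other pyrimidine nucleotide carrier measured, was higher, at 0.59, 0.59 and 0.45 on its H clone (adjusted p = 0.00119).

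Slc25a4, the ADP/ATP translocase ANT1, was measured by an unlisted spot at 1.81, 1.81 and 2.03, a ratio of 3.68, and at 0.33 with each collection centred, where it did not pass. Slc25a5, the ADP/ATP translocase ANT2, was measured by an H clone at 0.29 ± 0.05 and did not pass (adjusted p = 0.0059). Whether clones of such close relatives take up each other's RNA was not tested. Slc25a11, the oxoglutarate carrier, joined an unlisted spot at 1.31 with an H clone at 0.47, 0.45 and −0.04, and its call ended on the H clone alone (adjusted p = 0.0904). Slc25a3, the phosphate carrier, was at 0.02.

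Several mitochondrial carriers that did not pass were lower on array 3 than on the others. Slc25a1, the citrate carrier, read −0.20, −0.36 and −0.92. Slc25a20, which carries acylcarnitines, had a gene value of −0.20, −0.31 and −0.67 over 2 H clones, and Slc25a39 read −0.18, −0.26 and −0.69. These 3 passed once the dye was a coefficient of the fit (adjusted p = 2.98e-05, 7.09e-05 and 5.61e-05), a fit that called 44.1% of the carrier genes and 44.9% of all genes. Others in the family were highest on array 3, and carriers of other roles, such as Slc48a1 (−0.21, −0.15 and −0.60), were also lower there. Slc25a37, mitoferrin 1, which brings iron to haem synthesis, read −0.42, −0.36 and −0.21 (−0.33 ± 0.11). Slc25a32, the folate carrier, read −0.33, −0.34 and −0.19 (−0.28 ± 0.08). Neither Slc25a37 nor Slc25a32 passed without the dye term.

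Of the metal ion carriers, 2 of 16 were higher, 2 were lower and 12 did not pass. Each direction made 12.5%, near the 12.4% and 10.3% of all genes, and those that passed had H clones alone. Slc30a2, a zinc exporter of vesicles and secretory cells, was at 0.49, 0.60 and 0.58, a ratio of 1.47 (adjusted p = 8.82e-04). Slc31a2, a copper transporter of endosomes and lysosomes, was at 0.36, 0.39 and 0.43 (adjusted p = 0.00197). Lower were Slc39a8, the zinc and manganese importer ZIP8, at −0.40, −0.46 and −0.43 (adjusted p = 0.00141), and Slc30a9, at −0.33, −0.47 and −0.33 (adjusted p = 0.0037).

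Of the other 12 metal carriers, 8 had a value below 0, and none passed. Slc39a10, a zinc importer of the plasma membrane, read −0.51, −0.53 and −0.21 (adjusted p = 0.0107), and Slc39a7, which releases zinc from the endoplasmic reticulum, was at −0.26. The copper importer gene Slc31a1 read 0.26, 0.24 and −0.08. Slc11a2, the ferrous iron importer DMT1, had 1 H clone that passed, at 0.42 (adjusted p = 0.00481), a second at 0.50 that did not (adjusted p = 0.00707) and a P clone at 0.11. The iron exporter gene Slc40a1, ferroportin, was at −0.21 on an H and a P clone alike (adjusted p = 0.0191 and 0.0298). Of 17 other genes of iron, copper and zinc handling measured, 2 were higher, 1 was lower and 14 did not pass, so that 17.6% passed against 22.6% of all genes. Mtf1, the zinc-sensing transcription factor, was at 0.35 and Tfr2, a transferrin receptor on a P clone, at 0.90, while the ferritin heavy chain gene Fth1 was at −0.52. The metallothionein genes Mt1 and Mt2 were at −0.18 and 0.00.

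**Figure D2:**
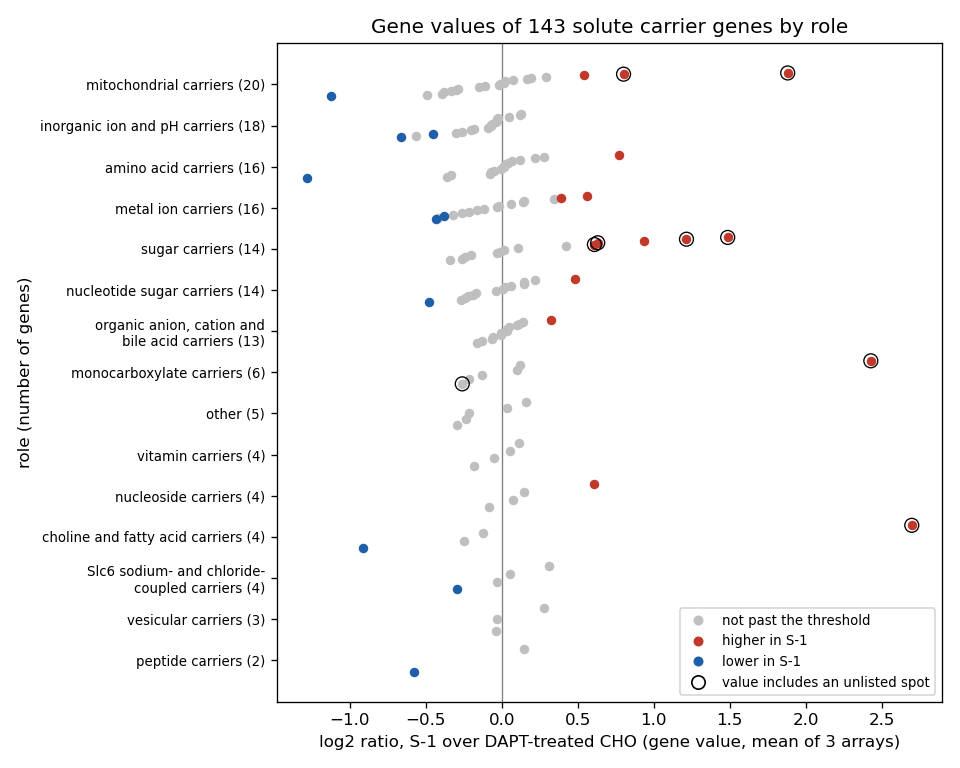
Gene values of the 143 genes (horizontal axis, mean log2 ratio of 3 arrays, S-1 over DAPT-treated CHO) by role of the carrier (vertical axis, with the number of genes), coloured by call. Most points lie near 0, and 8 of the 9 circled values, which include an unlisted spot, are higher in S-1 cells.

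In the Slc35 family, 1 of 14 genes was higher, 1 lower and 12 did not pass, so that 14.3% passed against 22.6% of all genes. Both that passed had 2 H clones which moved alike. Slc35b1, which exchanges ATP for ADP across the membrane of the endoplasmic reticulum, was at 0.52 ± 0.03 and 0.44 ± 0.08 on its clones, and its gene value read 0.45, 0.54 and 0.45 on the arrays (adjusted p = 0.00126). Slc35a5 was at −0.48 on one clone and −0.47 on the other, with a gene value of −0.46, −0.53 and −0.45 (adjusted p = 0.00114). Slc35e1 had an H clone at −0.50 that passed and another at 0.06 that did not. The transporter genes of CMP-sialic acid (Slc35a1) and of the sulfate donor PAPS (Slc35b2) were at −0.17 and 0.06. In Slc35a1 the arrays disagreed in sign, at −0.29, −0.37 and 0.16.

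Carriers of inorganic ions had 2 lower genes, 0 higher and 16 that did not pass, and the lower genes made 11.1% against 10.3% of all genes. Slc20a1, a sodium-coupled phosphate importer, was at −0.64, −0.75 and −0.60, 1.58-fold lower in S-1 cells (adjusted p = 6.7e-04). Its relative Slc20a2 was at 0.12 ± 0.04 and did not pass (adjusted p = 0.072). Slc4a2, the chloride/bicarbonate exchanger AE2, was at −0.52, −0.44 and −0.39 (adjusted p = 0.00173). A further H clone named for both Slc4a2 and Unc5b, and so no member here, was at −1.16 ± 0.12.

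The cation-chloride cotransporters of the Slc12 family set cell volume and chloride. Slc12a7, the potassium-chloride cotransporter KCC4, had an H clone at −0.39, −0.37 and −0.39 (adjusted p = 0.00237) and another at −0.02, and its gene value of −0.20 did not pass. Slc12a4, the cotransporter KCC1, read 0.00, −0.91 and −0.80, so that array 1 stood apart. This was the largest absolute gene value of the carriers that did not pass (−0.57 ± 0.50, adjusted p = 0.0599). Slc12a2, the sodium-potassium-chloride cotransporter NKCC1, was at −0.03 over 4 H clones. The kinases Oxsr1 and Stk39, which phosphorylate these cotransporters, were both lower in S-1 cells, at −0.45 ± 0.08 and −0.43 ± 0.08, and their activator genes Wnk1 and Wnk4 were at −0.04 and 0.03.

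Those kinases belong to a list of 13 measured partner and pump genes, of which 0 were higher, 3 were lower and 10 did not pass (23.1% passed, against 22.6% of all genes). The third was Atp1b3, a β subunit of the sodium pump that maintains the sodium gradient, at −0.34 ± 0.02 (adjusted p = 0.00281). Bsg, or basigin, which brings monocarboxylate carriers to the cell surface, was at −1.10 with the wide SD of 0.59 and did not pass (adjusted p = 0.0129). The list was chosen by role, with earlier results of these arrays known.

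Of the 6 monocarboxylate carriers, 1 was higher (16.7%, against 12.4% of all genes) and 5 did not pass. Slc16a7, the pyruvate and lactate transporter MCT2, was at 2.23, 2.36 and 2.70 on an unlisted spot, a ratio of 5.38 (adjusted p = 1.51e-04), and had no other spot. With each collection centred on its median, Slc16a7 was at 0.87 and passed (adjusted p = 9.34e-04). The upper quartile of all 480 unlisted spots was 2.43, so many of them stay high after centring. That fit therefore cannot check a call that rests on an unlisted spot alone. Slc16a1, the lactate transporter MCT1, had an H clone at −0.36, −0.31 and −0.38 that passed (adjusted p = 0.00357). Its unlisted spot read −0.03, 0.01 and −0.49 and was the one unlisted spot of the carriers that did not pass, so the gene value of −0.26 did not pass either (adjusted p = 0.033). On the H clone alone, Slc16a1 was lower (−0.35). Slc16a3, the lactate exporter MCT4, was at −0.22 ± 0.10 (adjusted p = 0.0296).

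The choline transporter gene Slc44a1 fell on both of its H clones. One read −1.10, −1.15 and −1.24, 2.24-fold lower in S-1 cells, and the other −0.63, −0.78 and −0.55, and the gene value of −0.91 ± 0.05 passed (adjusted p = 1.96e-04). Spots named for both Slc44a2 and Atg4d were at −1.07 on an H clone, which passed, and at −0.35 on a P clone, which did not. They share a name with another gene and were not counted, like 6 further spots that name a carrier together with another gene. Slc44a4 was at −0.12 and did not pass. Of the fatty acid transport proteins, Slc27a2 had the largest ratio of all carriers, 2.48, 2.68 and 2.94 on the arrays (a linear ratio of 6.49, adjusted p = 1.36e-04), on a single unlisted spot. With each collection centred on its median, Slc27a2 was at 1.14 and passed (adjusted p = 4.12e-04). As for Slc16a7, that fit does not check the call, since the value lies within the range of all unlisted spots (highest 2.85). Slc27a4, measured by an H clone, was at −0.25 (adjusted p = 0.0184).

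Nucleoside carriers had 1 higher gene of 4 (25%, against 12.4% of all genes). Slc28a2, a sodium-coupled importer of purine nucleosides and uridine, read 0.52, 0.80 and 0.51 on its H clone (adjusted p = 0.00263). The equilibrative carrier genes Slc29a1 and Slc29a2 were at −0.08 and 0.15. Slc28a3 changed sign between arrays, at −0.01, −0.20 and 0.43. Of 13 carriers of organic anions, organic cations and bile acids, Slc22a7, an organic anion transporter of liver and kidney, was the only one past the threshold, by little (0.33 ± 0.07, adjusted p = 0.00492). With H clones alone its adjusted p was 0.00504. This 1 gene made 7.69% of the group, against 22.6% of all genes that passed. The other 12, among them all 6 Slco genes, lay between −0.16 and 0.14.

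Among vitamin carriers (4 genes), vesicular carriers (3 genes) and the 5 genes of other roles, none passed by gene value, where 22.6% of all genes did. The last included the urea transporter genes Slc14a1 and Slc14a2, at −0.30 and 0.03. Slc49a4 of the same group had an H clone at −0.56, −0.55 and −0.58, which passed (adjusted p = 7.83e-04), and a second at 0.13 that did not. The vesicular polyamine transporter gene Slc18b1 was at 0.28 ± 0.03 (adjusted p = 0.00558). Slc23a2, a vitamin C transporter, was at −0.18, and the proton-coupled folate transporter gene Slc46a1 read 0.19, 0.33 and −0.17.

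Clones of one carrier often differed in their call. Of the 31 genes with more than 1 spot, 16 had a spot past the threshold. In 3 of them (Slc35a5, Slc35b1 and Slc44a1) all spots passed the same way, in 12 another spot did not pass, and in Slc2a4 spots passed both ways. The spots of a gene differed, from the lowest to the highest, by a median of 0.24 on the log2 scale. For 6 genes a spot passed and the gene value did not, namely Slc6a8, Slc11a2, Slc12a7, Slc16a1, Slc35e1 and Slc49a4. None of these counts was taken over all genes with more than 1 spot, so whether carriers differ from other genes in this was not tested. By single spots, 18 of 183 were higher and 17 lower. That is 19.1% against 18.2% of all spots tested, with 9.84% against 9.68% higher and 9.29% against 8.52% lower.

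**Figure D3:**
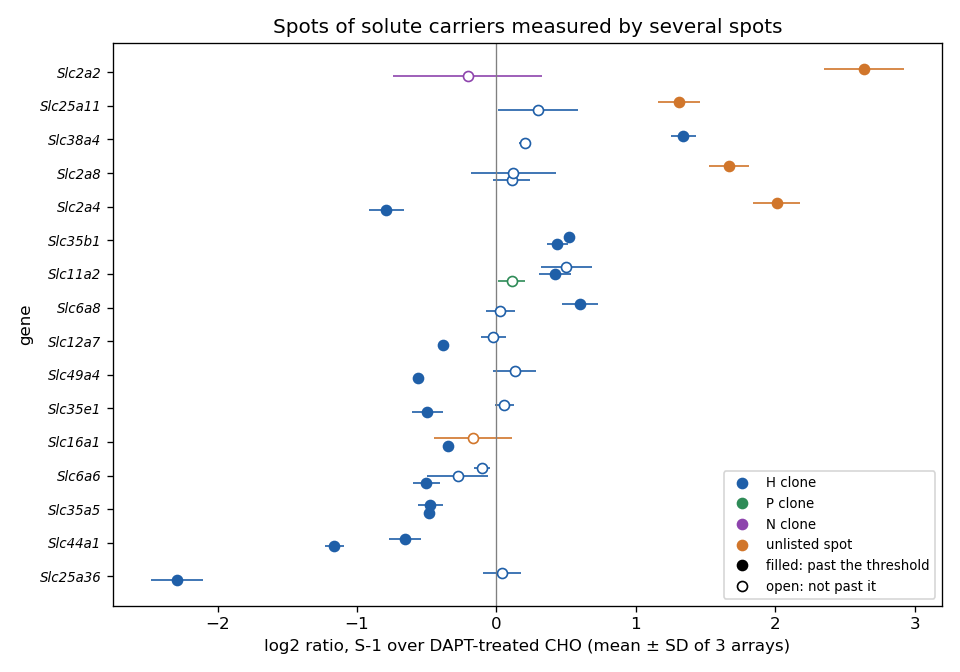
Spots (log2 ratio, mean ± SD of 3 arrays, S-1 over DAPT-treated CHO) of the 16 carrier genes with more than 1 spot of which at least 1 passed, coloured by clone collection and filled where the spot passed. Slc2a4 has a filled point on either side of 0, and the H clones of Slc25a36 lie at −2.29 and 0.04.

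Array 3 was the only one with S-1 in Cy5 and also an experiment of its own, so dye and experiment cannot be told apart in a ratio that differs there. Of the 143 gene values, 101 had the same sign on all 3 arrays. Slc38a10 and Slc2a2 were the called genes whose array 3 stood furthest from arrays 1 and 2, by 0.72 and 0.68 on the log2 scale. Slc35a4, of the nucleotide sugar carriers, read 0.24, 0.42 and −0.21 and so had the other sign on array 3. All 26 calls were also made with the dye as a coefficient, a fit whose spread comes from arrays 1 and 2 alone and which called more genes. That fit called 23 carrier genes higher and 40 lower, shares of 16.1% and 28%, against 23.2% and 21.8% of all genes.

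**Figure D4:**
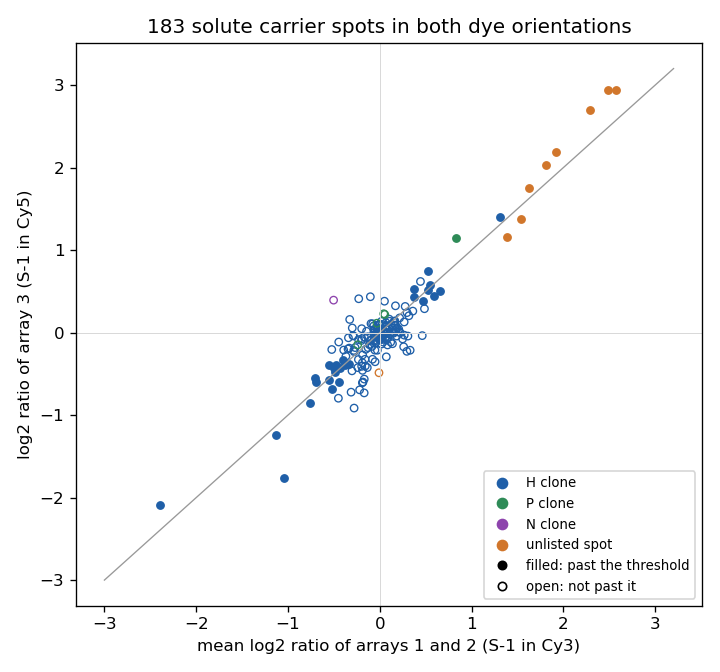
Log2 ratio of each of the 183 carrier spots on array 3 (S-1 in Cy5, vertical axis) against the mean of arrays 1 and 2 (S-1 in Cy3, horizontal axis), with the line of equality, coloured by collection and filled where the spot passed. Filled points keep their sign in both orientations, which the test on these arrays favours. The 8 filled unlisted spots lie at the upper right with the P clone of Slc2a5 and an H clone of Slc38a4 at 1.34.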

How the data were processed

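RNA of S-1 and DAPT-treated CHO cells was compared on 3 cDNA arrays in 2 colours. The authors quantified the scans with GenePix Pro and left the background in. After lowess normalisation within print-tip groups they deposited log2 ratios of 17664 spots for each array. The sign was the same on all 3, with S-1 cells in the numerator (the transfected Psenen was at 2.84, 3.11 and 3.33). Signal over background was not analysed here. The number of arrays limits the precision.

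Spots at 23 positions per block without any gene name (736 spots, r = −0.960 between arrays 1 and 3) were taken as controls and left out. limma 3.58.1 in R 4.3.3 fitted the mean of 3 arrays against 0 for 16928 spots and 8146 gene values, with Benjamini-Hochberg adjustment over all of them and the study's threshold of 0.005. Names came from the platform's annotation. Collections were set by block position, which gave the right letter for 2523 of 2524 clone identifiers of the study's lists that could be tied to 1 spot. The listed folds served to tie them and for nothing else. Python 3.11.15, NumPy 2.4.6, pandas 2.3.3 and Matplotlib 3.10.9 made tables and figures. The fit was also run on simulated normal noise with some genes changed. That simulation held no dye effect, no shift between collections and no difference between clones, so it does not bear on these.

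The members, role lists and marker lists were chosen with earlier results of these data known. Named genes were those past the threshold by gene value or spot, the largest that were not, their family members and the genes of the partner and metal lists that passed. Others, such as Slc3a2, Slc7a5, Mt1 and Wnk1, were named after their values were seen, as examples of a role. Alternatives were a threshold of 0.05, median centring, quantile normalisation, centring of each collection, a dye coefficient, array weights, control spots included, H clones alone, unlisted spots left out, the median of a gene's spots, and each array left out.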

Additional observations from a re-analysis of the deposited data

How the results depend on the processing

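Against 26 passing genes (16 higher, 10 lower), a threshold of 0.05 gave 61 (37 lower), the dye as a coefficient 63 (40 lower) and array weights 48 (25 lower). H clones alone gave 6 higher genes and leaving out the unlisted spots 7. Leaving out 1 array gave 7 to 57 passing genes, 5 to 29 higher and 2 to 28 lower. Against 35 passing spots, a threshold of 0.05 gave 67, the dye coefficient 75, array weights 55, the control spots included 16, and 1 array left out 9 to 71. Arrays 1 and 2 alone hold S-1 in 1 dye only. All other counts stayed within 1.5 times. Shares of all genes were taken for the dye coefficient, H clones alone and unlisted spots left out, and not for the other alternatives.

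Reversed in sign were Slc2a4 with each collection centred (−0.17), with H clones alone (−0.79) and without unlisted spots (−0.79), Slc2a2 without unlisted spots (−0.20) and Slc37a4 with each collection centred (−0.0671). Centring a collection takes its median from each of its spots, so a spot far above that median stays high. Of the 26 genes, 19 kept their call in each of 7 fits that could end it (2 centrings, quantile normalisation, dye coefficient, array weights, H clones alone for the 20 genes with one, and unlisted spots left out for the 22 with another spot). Among these, the dye coefficient (63 passing) and array weights (48 passing) called more carrier genes than the main fit and ended no call, so they test little. A threshold of 0.05 and the control spots cannot end a gene's call, and the median of spots bears on 2 of these genes, Slc2a8 and Slc6a6, and ended both calls. Only Slc16a7, Slc25a36, Slc27a2, Slc38a4 and Slc44a1 (5 genes) kept their call in those of the 7 fits that could be run on them and also without each array. Slc16a7 and Slc27a2 have an unlisted spot only. The fits with H clones alone and without unlisted spots could not be run on them, and centring does not check them. Slc25a36 and Slc38a4 each have a second H clone that did not pass, at 0.04 and 0.20, and no fit left out single H clones. Each ratio pairs the 2 cultures of 1 array, so the test of the mean ratio against 0 is itself a paired analysis.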
